A study of Saccharomyces cerevisiae with 8 samples.

Results

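Overexpression of SSZ1 was examined in budding yeast (Saccharomyces cerevisiae) lacking IRE1, by setting the 2 arrays of the strain SSZ1OEΔire1 against the 3 arrays of the strain Δire1, 5 of the 8 arrays of the study. The arrays were chosen by their sample titles, and all genes were described. SSZ1OEΔire1 carries the IRE1 deletion and overexpresses SSZ1, while Δire1 carries the IRE1 deletion alone, so that every cell compared here lacks IRE1. The labels do not say from which promoter or plasmid SSZ1 was overexpressed, and no strain with IRE1 was compared. Both strains grew at 30 °C in synthetic medium to an OD600 of 0.2 to 0.3, in early log phase, and each RNA sample was labelled with Cy3 and hybridised to 1 one-colour Agilent array. Each replicate carries its own strain number in the labels, which describe independent samples without saying whether these were separate transformants or cultures. What the p-values measure is therefore only the spread among samples of this kind, and that spread may be technical. It was estimated on all 8 arrays of the study, including those of the strain not compared here.

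Ssz1, also known as Pdr13, is an atypical Hsp70 that forms the ribosome-associated complex with the J protein Zuo1 and assists the Hsp70s Ssb1 and Ssb2 on nascent chains. When not bound to ribosomes, Ssz1 and Zuo1 are known to activate Pdr1, which together with Pdr3 turns on genes of pleiotropic drug resistance such as the multidrug exporter gene PDR5. Ire1 is the endoplasmic reticulum (ER) sensor that splices HAC1 mRNA and so starts the unfolded protein response.

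Levels are log2 signals scaled to the 75th percentile of each array, and each gene is compared only with itself across arrays. A difference is the SSZ1OEΔire1 mean minus the Δire1 mean on this log2 scale, with the standard error (SE) and adjusted p of a limma fit over all genes, and a gene is said to rise or fall where the adjusted p was under 0.05. On the 5 arrays the 75th percentile ranged from 5037 to 7152 intensity units, no spot was saturated, and 90.5% to 95.9% of spots exceeded background clearly by the scanner software's own mark. The number of arrays limits the precision. Per gene, the SSZ1OEΔire1 arrays differed from each other by a median of 0.096, Δire1 replicates 1 and 3 by 0.056, and Δire1 replicate 2 from replicates 1 and 3 by 0.214 and 0.196. Δire1 replicate 2 thus stood apart from the other Δire1 arrays by about as much as arrays of the 2 strains differed from each other, 0.188 to 0.223. Both SSZ1OEΔire1 arrays and Δire1 replicates 1 and 2 lay in slide row 1, while Δire1 replicate 3 lay in row 2.

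SSZ1 (YHR064C) itself was strongly raised. Its level was 5.61 and 6.07 on the SSZ1OEΔire1 arrays, against 3.06, 2.79 and 3.05 on the Δire1 arrays, a 7.30-fold rise (difference 2.87, SE 0.16, adjusted p = 0.000668). Every SSZ1OEΔire1 array lay above every Δire1 array, as the labels require. The genes next to SSZ1 did not pass the test, with a difference of −0.28 for PAN5 (adjusted p = 0.067) and −0.25 for RRP3 (adjusted p = 0.051). The probe of the deleted IRE1 (YHR079C) stayed at background on all 5 arrays, and YHR078W beside it fell slightly (difference −0.44, SE 0.11, adjusted p = 0.040). HAC1, whose mRNA is the substrate of Ire1, had levels of 1.47 and 1.35 in SSZ1OEΔire1 and 1.08, 1.39 and 1.18 in Δire1. These overlapped, and the difference of 0.19 (SE 0.12, adjusted p = 0.32) did not pass. SCJ1, which is intact in both strains, had levels of 0.85 and 0.91 in SSZ1OEΔire1 and 0.62, 0.33 and 0.62 in Δire1 and also did not pass.

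Across the genome, most targets of the drug-resistance factors rose, as did some genes for the use of other carbon sources and some chaperone and wall genes, while some genes of phosphate and nitrogen uptake, purine synthesis and ribosome assembly fell. Of 6240 genes tested, 713 (11.4%) changed, of which 469 (7.52%) rose and 244 (3.91%) fell. The counts of each gene list below are to be read against these shares. Changes of at least 2-fold were mostly rises, with 182 genes that rose and 23 that fell by that much, and 24 rose and 5 fell by at least 4-fold. All 713 called genes had arrays that did not overlap between the strains, which was so for 46.4% of all genes tested. The split depends on how the arrays are scaled: 65.8% of called genes rose as scaled here, 47.4% after quantile normalization, 51.7% with the arrays scaled to their medians and 89.8% with the spike-in controls as the scale, which moved the median difference of all genes to 0.131, against 0.026 as scaled here. With the strains compared on the arrays of slide row 1, without Δire1 replicate 3, 252 genes changed (183 rose and 69 fell), and the spread in this fit was still estimated with the 3 arrays of the other strain, which lay in row 2. The count was 280 without SSZ1OEΔire1 replicate 1, 60 without SSZ1OEΔire1 replicate 2, 342 without Δire1 replicate 1 and 1507 without Δire1 replicate 2. Of the 162 called genes examined one by one under 19 alternative settings, 27 were called under every setting that could test them, 19 that rose and 8 that fell.

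**Figure D1:**
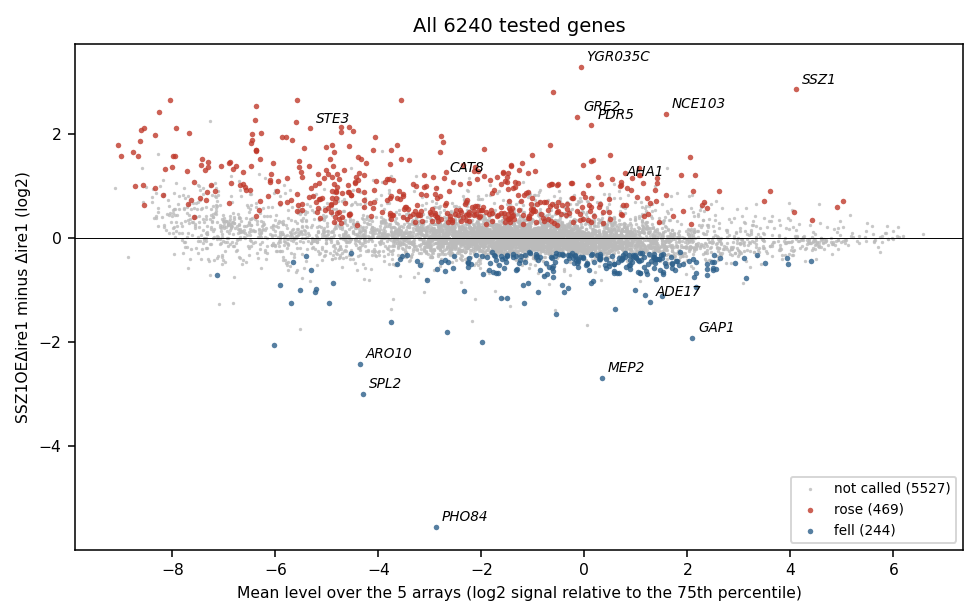
Difference between SSZ1OEΔire1 (n = 2) and Δire1 (n = 3) on the log2 scale (vertical) against the mean level over the 5 arrays (horizontal), 1 point per tested gene, red for the 469 genes that rose, blue for the 244 that fell and grey for the rest. PHO84 lies lowest at −5.55, YGR035C highest at 3.30, and rises are more frequent among dim genes, which could pass the filter through 1 strain only.

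Rises and falls were spread unevenly over signal and gene length. In the dimmest decile of genes 93 rose and 8 fell (median difference 0.253), and in the brightest decile 20 rose and 40 fell (−0.057). A gene could be tested where only 1 strain was well above background, so dim genes could enter through the strain where they are high. The part of this filter in the excess of dim rises was not tested. Of the 5926 genes well above background on every array of both strains, 431 rose and 259 fell. In the shortest decile of the 5761 genes with a known length (median 315 bases) 85 rose and 12 fell, and in the longest decile (median 3531 bases) 13 rose and 45 fell. Set against each gene's mean in Δire1, the shortest decile had median levels of 0.246 and 0.194 on the SSZ1OEΔire1 arrays and of −0.027, 0.145 and −0.125 on Δire1 replicates 1, 2 and 3. Δire1 replicate 2 thus lay near the SSZ1OEΔire1 arrays for short genes and apart from the other Δire1 arrays. The part of gene length and RNA quality in single results was not tested, but each array's trend with length was removed as an alternative: 794 genes then changed, 435 that rose and 359 that fell, 578 of them among the 713.

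**Figure D2:**
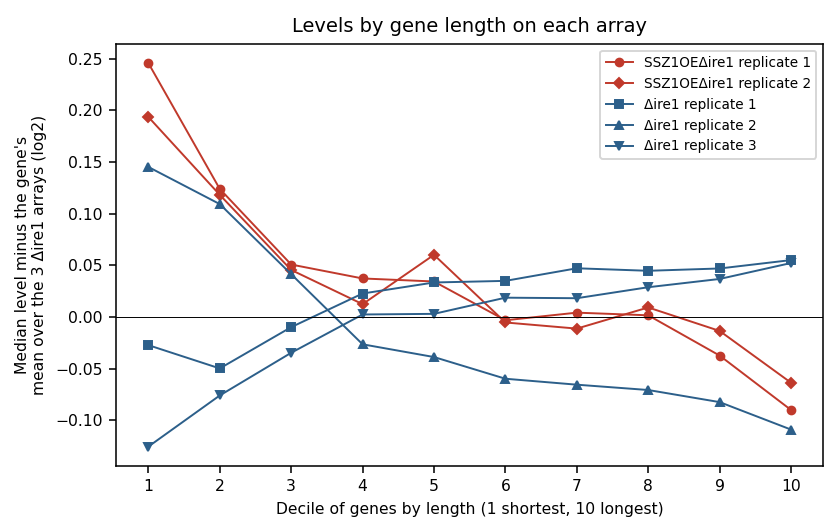
Median level on each array relative to the gene's mean over the 3 Δire1 arrays (log2, vertical) for deciles of genes ordered by length (horizontal), with SSZ1OEΔire1 arrays in red and Δire1 arrays in blue. For the shortest decile, the SSZ1OEΔire1 arrays (0.246 and 0.194) and Δire1 replicate 2 (0.145) lie above Δire1 replicates 1 (−0.027) and 3 (−0.125).

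Targets of Pdr1 and Pdr3 formed the group with the highest share of rises. Of 20 genes on the list 19 were tested, 13 rose and 0 fell, and 11 rose by at least 2-fold. Only 18 were well above background on every array of both strains, and of these 12 rose and 0 fell. The median difference of the list was 1.29, against 0.026 over all genes, and the median relative to Δire1 was 1.03 and 1.56 on the SSZ1OEΔire1 arrays. This direction was known from earlier results of these data when the list was drawn up, so the counts describe the group and are not independent support. PDR5, the main multidrug exporter of the plasma membrane, had levels of 1.35 and 1.54 in SSZ1OEΔire1 and −0.80, −0.76 and −0.66 in Δire1, a 4.54-fold rise (difference 2.18, SE 0.09, adjusted p = 8.34e-05). The groups lay far apart compared with the spread within each of them.

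The exporter gene YOR1, for a transporter of organic anions, had levels of 0.58 and 1.05 in SSZ1OEΔire1 and −0.60, −0.55 and −0.65 in Δire1 (difference 1.41, SE 0.14, adjusted p = 0.0033). SNQ2, an exporter gene related to PDR5, had levels of 0.33 and 0.48 in SSZ1OEΔire1 and −0.66, −0.80 and −0.54 in Δire1 (difference 1.07, SE 0.10, adjusted p = 0.0029). Other exporters of the same family did not pass the test. PDR15 had a difference of 0.02 (adjusted p = 0.97), PDR10 of 0.21 (adjusted p = 0.40) and PDR11, which serves sterol uptake, of 0.08 (adjusted p = 0.72), all with overlapping arrays.

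Membrane lipid genes of the group rose with the exporters. RSB1, which exports sphingoid bases from the cell, had levels of −3.74 and −3.90 in SSZ1OEΔire1 and −5.73, −5.46 and −5.69 in Δire1 (difference 1.81, SE 0.19, adjusted p = 0.0034). ICT1, for a lysophosphatidic acid acyltransferase, had levels of −0.29 and 0.19 in SSZ1OEΔire1 and −1.51, −1.67 and −1.79 in Δire1 (difference 1.61, SE 0.18, adjusted p = 0.0041). PDR16, for a phosphatidylinositol transfer protein, rose by 1.06, TPO1, for a polyamine exporter, by 0.79, and IPT1, which makes the most complex yeast sphingolipid, by 0.56. The remaining sphingolipid genes gave no further call. Of 24 tested only RSB1 and IPT1 rose (8.33%, near the 7.52% of all genes) and 0 fell. There was 1 rise without Δire1 replicate 1, as without replicate 3, and 3 without replicate 2. The IPT1 call was lost in 7 of 19 alternatives.

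The uncharacterised gene YGR035C rose most of all genes tested. It had levels of 1.97 and 1.85 in SSZ1OEΔire1, against −1.55, −0.97 and −1.66 in Δire1, a 9.86-fold rise (difference 3.30, SE 0.31, adjusted p = 0.0029). GRE2, for a methylglyoxal reductase, had levels of 0.76 and 1.78 in SSZ1OEΔire1 and −0.98, −1.15 and −1.09 in Δire1 (difference 2.34, SE 0.26, adjusted p = 0.0041). Its SSZ1OEΔire1 arrays differed by about 1 log2 unit, and both lay above all Δire1 arrays. HXT9, a gene of the hexose transporter family, rose by 1.70 (SE 0.16, adjusted p = 0.0032), while its near-identical copy HXT11 was not tested, and signal from such a copy cannot be told apart here. PDR5, SNQ2, YOR1, RSB1, ICT1, HXT9, GRE2 and YGR035C were called under every setting tried. The list had 9 to 15 rises and 0 falls over those settings.

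Among the regulators, PDR1 passed the test and PDR3 did not. PDR1 had levels of −0.64 and −0.51 in SSZ1OEΔire1 and −0.94, −0.98 and −0.84 in Δire1, and rose by 0.34 (SE 0.08, adjusted p = 0.035), a call lost in 10 of 19 alternatives, among them those without any 1 of SSZ1OEΔire1 replicates 1 and 2 and Δire1 replicates 1 and 3. PDR3 had a difference of 0.28 (adjusted p = 0.11). ZUO1, the partner of Ssz1, had levels of 4.39 and 4.35 in SSZ1OEΔire1 and 3.93, 3.74 and 3.90 in Δire1 (difference 0.51, SE 0.09, adjusted p = 0.015). SSB1 and SSB2, the Hsp70 genes that the complex assists, overlapped between the strains, with differences of −0.29 (adjusted p = 0.23) and −0.20 (adjusted p = 0.42). BTT1, for a minor subunit of the nascent polypeptide-associated complex, rose by 0.45 (SE 0.10, adjusted p = 0.035), which 12 of 19 alternatives no longer called.

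**Figure D3:**
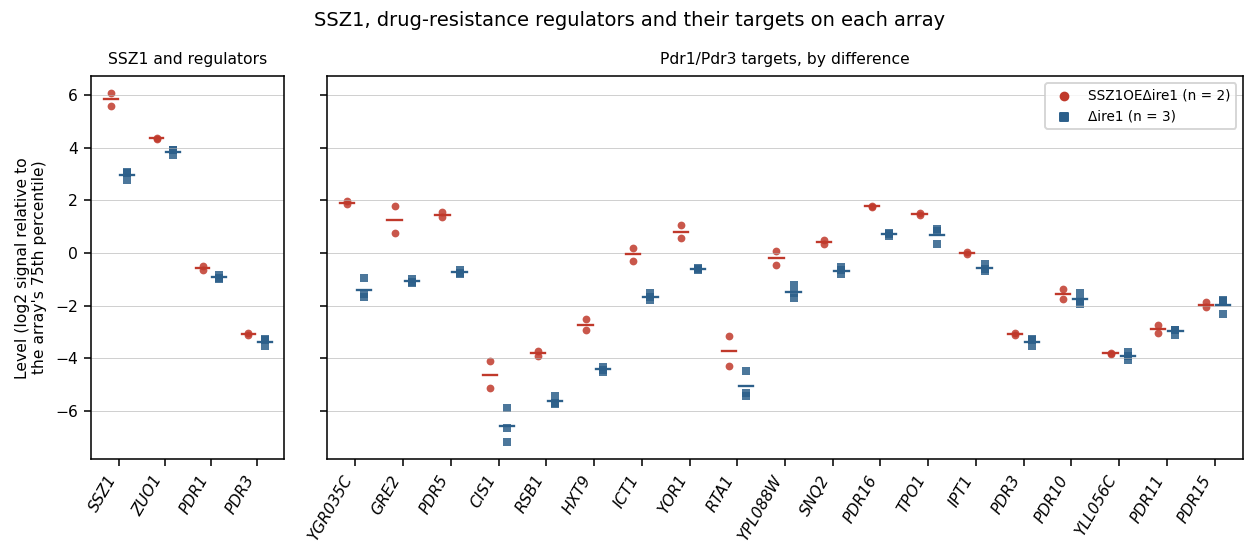
Level on each array (log2, scaled to the 75th percentile) of SSZ1, ZUO1, PDR1 and PDR3 (left panel) and of the 19 tested Pdr1/Pdr3 targets ordered by difference (right panel), with 2 SSZ1OEΔire1 arrays as red circles left of 3 Δire1 arrays as blue squares and lines for the means. From YGR035C to PDR16 most targets lie clear of the Δire1 arrays, and PDR10, PDR11, PDR15 and YLL056C overlap.

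Phosphate genes held the largest fall of the comparison. PHO84, for the high-affinity phosphate transporter of the plasma membrane, had levels of −6.11 and −6.31 in SSZ1OEΔire1, against −0.38, −0.13 and −1.47 in Δire1. This is a difference of −5.55 (SE 0.40, adjusted p = 0.0017), or 46.8-fold lower, and the probe was well above background on all 5 arrays. SPL2, which restrains low-affinity phosphate uptake, had levels of −6.07 and −6.12 in SSZ1OEΔire1 and −3.39, −1.82 and −4.10 in Δire1 (difference −2.99, SE 0.58, adjusted p = 0.020). PHO5, for the secreted acid phosphatase, had levels of −4.57 and −4.87 in SSZ1OEΔire1 and −2.72, −2.91 and −3.72 in Δire1 (difference −1.60, SE 0.29, adjusted p = 0.017). For all 3 genes the SSZ1OEΔire1 arrays were close together and low, the Δire1 arrays were spread widely, and Δire1 replicate 3 was the lowest of them.

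Of 26 phosphate genes tested 7 fell and 1 rose, against 3.91% and 7.52% of all genes, with a median difference of −0.14. The other falls were small. VTC3 and VTC4, for subunits of the vacuolar polyphosphate polymerase, fell by 0.56 and 0.38, and the cyclin gene PHO80 and the inhibitor gene PHO81 of the phosphate-sensing kinase by 0.34 each. The PHO80 call was lost in 9 and the PHO81 call in 10 of 19 alternatives. PHO4, for the activator of these genes, had a difference of −0.50 that did not pass (adjusted p = 0.084). GDE1, for a glycerophosphocholine phosphodiesterase, rose by 0.55. With the spike-in scale 3 of the 26 fell and 0 rose, 1 fell without SSZ1OEΔire1 replicate 1, as without SSZ1OEΔire1 replicate 2, 4 without Δire1 replicate 1, as without replicate 3, and 11 without Δire1 replicate 2.

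Some genes for the uptake of nitrogen sources also fell. MEP2, for the high-affinity ammonium permease, had levels of −0.86 and −1.67 in SSZ1OEΔire1, against 1.23, 1.60 and 1.43 in Δire1, and was 6.41-fold lower (difference −2.68, SE 0.28, adjusted p = 0.0037). GAP1, for the general amino acid permease, had levels of 1.22 and 0.68 in SSZ1OEΔire1 and 2.90, 2.77 and 2.92 in Δire1 (difference −1.92, SE 0.22, adjusted p = 0.0041). DUR12, for urea amidolyase, had levels of −1.30 and −1.56 in SSZ1OEΔire1 and −0.02, 0.06 and 0.05 in Δire1 (difference −1.46, SE 0.16, adjusted p = 0.0039). These 3 genes were called under every setting tried.

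The ammonium permease genes MEP1 and MEP3 fell by 1.24 and 0.52, AGP1, for a broad amino acid permease, by 0.93, and DAL3, for an enzyme of allantoin breakdown, by 1.02. Other genes of allantoin use rose. DAL1, for allantoinase, had levels of −4.11 and −3.96 in SSZ1OEΔire1 and −4.91, −4.96 and −4.92 in Δire1 (difference 0.90, SE 0.08, adjusted p = 0.0025), under every setting tried. DAL4, for the allantoin permease, rose by 1.07 (adjusted p = 0.033) and GDH1, for a glutamate dehydrogenase that assimilates ammonium, by 0.43 (adjusted p = 0.049). Of 32 nitrogen genes tested 7 fell (21.9%) and 3 rose (9.38%), against 3.91% and 7.52% of all genes, and the median difference was −0.31. The falls numbered 4 with the spike-in scale, as without Δire1 replicate 3, and 3 without SSZ1OEΔire1 replicate 2. DAL80, for a repressor of these genes, had a difference of −1.17 that did not pass (adjusted p = 0.052). ARO10, for a decarboxylase of aromatic amino acid breakdown, fell by 2.42 (SE 0.41, adjusted p = 0.013), with levels of −5.73 and −5.89 in SSZ1OEΔire1 and −3.37, −3.06 and −3.76 in Δire1.

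Some purine synthesis genes fell, by smaller amounts. Of 24 purine and one-carbon genes tested 10 fell and 0 rose, with a median difference of −0.36. The 10 falls ranged from −0.44 to −1.22. ADE17, for the enzyme of the last steps to inosine monophosphate, had levels of 0.39 and 0.69 in SSZ1OEΔire1 and 1.79, 1.81 and 1.68 in Δire1 (difference −1.22, SE 0.15, adjusted p = 0.0053). ADE12, for adenylosuccinate synthetase, had levels of −0.31 and −0.45 in SSZ1OEΔire1 and 0.49, 0.47 and 0.46 in Δire1 (difference −0.86, SE 0.08, adjusted p = 0.0032). SHM2, for cytosolic serine hydroxymethyltransferase, fell by 0.75 and ADE4, for the first enzyme of the pathway, by 0.69. BAS1, for an activator of these genes, had a difference of 0.24 (adjusted p = 0.14). The count of falls was 1 with the spike-in scale, 2 without SSZ1OEΔire1 replicate 2 and 6 without SSZ1OEΔire1 replicate 1.

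Of 55 amino acid genes under Gcn4 4 fell (7.27%) and 2 rose (3.64%), against 3.91% and 7.52% of all genes, and 3 of the falls were lysine synthesis genes. LYS20, for the first enzyme of the lysine pathway, had levels of −0.10 and −0.33 in SSZ1OEΔire1 and 1.09, 1.08 and 1.26 in Δire1 (difference −1.36, SE 0.16, adjusted p = 0.0047). LYS9, for saccharopine dehydrogenase, had levels of 0.46 and 0.30 in SSZ1OEΔire1 and 1.36, 1.30 and 1.45 in Δire1 (difference −0.99, SE 0.11, adjusted p = 0.0039). LYS12 fell by 0.49, a call lost in 12 of 19 alternatives, and LEU9, for an enzyme of leucine synthesis, by 0.56, while the arginine pathway genes CPA1 and ARG2 rose by 0.77 and 0.41. GCN4 itself had overlapping levels (difference 0.08, adjusted p = 0.65). Of the list 1 fell and 0 rose without SSZ1OEΔire1 replicate 2 (3 lower and 4 higher at an unadjusted p under 0.05), 2 fell without Δire1 replicate 1, as without replicate 3, and 11 fell without Δire1 replicate 2. Without SSZ1OEΔire1 replicate 1, 4 fell and 0 rose (2 higher at an unadjusted p under 0.05).

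**Figure D4:**
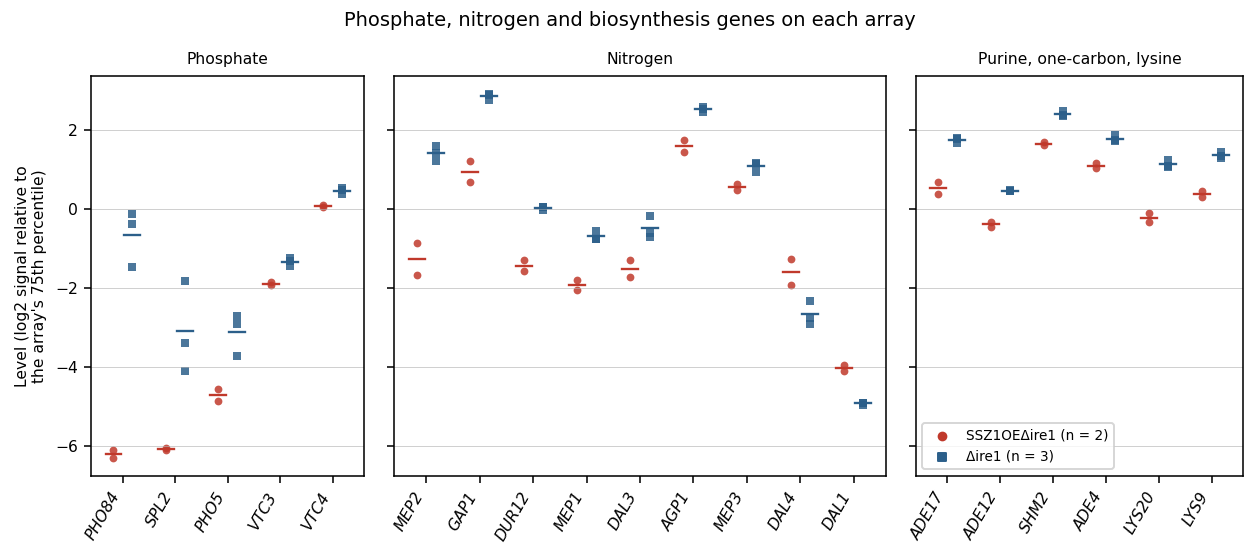
Level on each array (log2, scaled to the 75th percentile) of called phosphate, nitrogen, purine, one-carbon and lysine genes, with 2 SSZ1OEΔire1 arrays as red circles left of 3 Δire1 arrays as blue squares and lines for the means. All genes drawn are lower in SSZ1OEΔire1 except DAL4 and DAL1, and the gap is widest for PHO84.

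Some genes that glucose normally represses rose. Of 31 tested 8 rose and 0 fell, with a median difference of 0.47, and 30 had a positive difference. CAT8, for an activator of gluconeogenic genes, had levels of −2.12 and −1.95 in SSZ1OEΔire1 and −3.27, −3.20 and −3.14 in Δire1 (difference 1.17, SE 0.12, adjusted p = 0.0033). GAL4, for the activator of galactose genes, had levels of −4.83 and −4.20 in SSZ1OEΔire1 and −5.79, −5.94 and −5.99 in Δire1 (difference 1.39, SE 0.17, adjusted p = 0.0053). Both were called under every setting. The maltase genes MAL12 and MAL32, near-identical copies whose signals cannot be told apart here, rose by 1.95 and 1.90. IMA1, for an isomaltase, rose by 1.08, and SUC2, for invertase, by 0.52. MAL32 was not well above background on every array of both strains. Of the 28 list genes that were, 8 rose and 0 fell. The galactose genes GAL2 and GAL7 rose by 0.72 and 0.71. FBP1, for the gluconeogenic fructose bisphosphatase, had a difference of 0.36 that did not pass (adjusted p = 0.51). The rises of the list numbered 5 with the spike-in scale, 3 without SSZ1OEΔire1 replicate 2 and 14 without Δire1 replicate 2.

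Some hexose transporter genes with low signal rose, and the main transporters did not pass the test. Of 17 tested 5 rose and 0 fell, among them HXT9, GAL2 and HXT14. Only 15 were well above background on every array of both strains, and of these 4 rose and 0 fell. HXT10 had levels of −4.82 and −4.48 in SSZ1OEΔire1 and −5.90, −6.12 and −6.42 in Δire1 (difference 1.49, SE 0.16, adjusted p = 0.0039), under every setting. SNF3, for a glucose sensor, rose by 0.55 (adjusted p = 0.0098). HXT14, though counted as a rise, was well above background on 1 of 2 SSZ1OEΔire1 arrays and 0 of 3 Δire1 arrays. It passed the filter through the strain not compared here, and its call was lost in 7 of 17 alternatives. HXT1, for the main low-affinity transporter, had a difference of −0.48 (adjusted p = 0.077), HXT2 of 0.54 (adjusted p = 0.27) and HXT3 of 0.02 (adjusted p = 0.94). Of the 17, 3 rose with the spike-in scale, as without Δire1 replicates 1 or 3, 2 without SSZ1OEΔire1 replicate 2 and 8 without Δire1 replicate 2.

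Single genes of mitochondrial carbon metabolism were among the largest rises. MPC3, for a subunit of the mitochondrial pyruvate carrier, had levels of 0.69 and 1.46 in SSZ1OEΔire1 and −2.61, −0.51 and −2.09 in Δire1 (difference 2.81, SE 0.58, adjusted p = 0.023). SDH9, a homologue of the flavoprotein subunit of succinate dehydrogenase, rose by 2.05 and CIT3, for a mitochondrial citrate synthase, by 0.94. NCE103, for carbonic anhydrase, had levels of 3.45 and 2.60 in SSZ1OEΔire1 and 0.09, 1.07 and 0.72 in Δire1 (difference 2.40, SE 0.46, adjusted p = 0.019). The MPC3 and NCE103 calls were each lost in 6 of 19 alternatives. Of 43 respiratory genes tested 4 rose (9.30%, near the 7.52% of all genes) and 1 fell. By limma 0 of them rose without SSZ1OEΔire1 replicate 1 and 0 without replicate 2 (5 and 17 higher at an unadjusted p under 0.05), 2 rose without Δire1 replicate 1, as without replicate 3, and 10 rose without Δire1 replicate 2. COX7, for a subunit of cytochrome c oxidase, and CYC7, for an isoform of cytochrome c, rose by 1.21 each, ATP19 by 0.84 and COX9 by 0.68, and the heme-responsive activator gene HAP1 fell by 0.63. These respiratory genes are short, with a list median of 468 bases against 1209 for all genes, and on Δire1 replicate 2 COX7 (2.02, against 1.45 and 1.52 on replicates 1 and 3) and ATP19 (1.64, against 1.06 and 1.04) lay nearest to the SSZ1OEΔire1 arrays. TDH3 and PDC1, abundant genes of glycolysis and fermentation, overlapped between the strains.

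Among chaperone genes, Hsp90 cochaperones rose while most genes of the heat shock list did not pass. Of 29 Hsf1 targets 5 rose and 0 fell (median difference 0.26). AHA1, an activator of the Hsp90 ATPase, had levels of 1.21 and 1.53 in SSZ1OEΔire1 and 0.31, 0.24 and 0.28 in Δire1 (difference 1.09, SE 0.11, adjusted p = 0.0033), under every setting. SSA1, for a cytosolic Hsp70, had levels of 1.09 and 1.82 in SSZ1OEΔire1 and 0.04, −0.17 and −0.31 in Δire1 (difference 1.61, SE 0.28, adjusted p = 0.015). The cochaperone genes STI1 and HCH1 rose by 0.80 and 0.64 and the Hsp90 gene HSC82 by 0.36, the HSC82 call being lost in 10 of 19 alternatives. HSP82, the other Hsp90 gene, had a difference of 1.05 that did not pass (adjusted p = 0.11), nor did HSP104 (0.69, adjusted p = 0.18) or SSA4 (0.21, adjusted p = 0.59). Of the list 2 rose with the spike-in scale, 1 without SSZ1OEΔire1 replicate 2 and 9 without Δire1 replicate 2.

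ER genes rose in small number although IRE1 is absent from both strains. Of 35 unfolded protein response targets 5 rose and 0 fell (median difference 0.14), and 2 rose with only the 5 arrays of both strains. KAR2, for the ER Hsp70, had levels of 2.64 and 2.83 in SSZ1OEΔire1 and 2.18, 2.11 and 2.15 in Δire1, a 1.51-fold rise (difference 0.59, SE 0.08, adjusted p = 0.0068). DER1, for a component of ER-associated degradation, had levels of −1.80 and −1.62 in SSZ1OEΔire1 and −2.39, −2.25 and −2.39 in Δire1 (difference 0.63, SE 0.11, adjusted p = 0.013). ERD2, the receptor that returns ER proteins, rose by 0.92, the transport receptor gene ERV29 by 0.31 and SIL1, for an exchange factor of Kar2, by 0.28, each with a call that at least 10 of 19 alternatives ended. With the spike-in scale 0 of the 35 were called by limma (3 were higher and 1 lower at an unadjusted p under 0.05), and without SSZ1OEΔire1 replicate 2 also 0 (6 higher and 1 lower at an unadjusted p under 0.05), while 7 rose and 2 fell without Δire1 replicate 2. PDI1 and ERO1, for oxidative folding, had differences of 0.14 (adjusted p = 0.39) and −0.04 (adjusted p = 0.88). Of 19 genes of ER-associated degradation 2 rose, DER1 and the mannosidase gene MNS1 (0.53), 1 rose without SSZ1OEΔire1 replicate 1, as without Δire1 replicates 1 or 3, and 0 without SSZ1OEΔire1 replicate 2 (3 higher at an unadjusted p under 0.05). The share of rises among these 19 genes was 10.5%, against 7.52% of all genes. The ligase genes HRD1 and HRD3 overlapped between the strains. Both receptor genes of ER autophagy rose, ATG39 by 1.96 (SE 0.35, adjusted p = 0.016) and ATG40 by 1.19 (SE 0.27, adjusted p = 0.035).

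Of 26 cell wall integrity genes 5 rose and 0 fell (median difference 0.31). KDX1, for a kinase-like protein of this pathway, had levels of −1.72 and −0.86 in SSZ1OEΔire1 and −2.64, −2.47 and −2.66 in Δire1 (difference 1.30, SE 0.22, adjusted p = 0.013), under every setting. PRM5, a target of the pathway, had levels of 0.81 and 1.15 in SSZ1OEΔire1 and −0.39, 0.07 and −0.29 in Δire1 (difference 1.18, SE 0.16, adjusted p = 0.0074). The wall protein gene PST1 rose by 1.03, a call lost in 11 of 19 alternatives, among them those without any 1 of the 5 arrays, and PIR1 rose by 0.65. RLM1, for the transcription factor at the end of the pathway, rose by 0.54. WSC4, for a membrane protein related to the wall sensors, is not on the list and fell by 1.24 (adjusted p = 0.013). Of the 26, 2 rose with the spike-in scale, as without Δire1 replicates 1 or 3. The list median relative to Δire1 was 0.063 on SSZ1OEΔire1 replicate 1 and 0.421 on replicate 2, so it came mostly from replicate 2. SLT2, for the kinase of the pathway, had a difference of 0.32 (adjusted p = 0.13), and GSC2, for a glucan synthase, of −0.45 (adjusted p = 0.31). RPN4, for the activator of proteasome genes, rose by 0.77 (SE 0.16, adjusted p = 0.025). Of 35 proteasome-list genes 2 rose (5.71%, near the 7.52% of all genes), RPN4 itself and PUP3. Of that list 0 rose without any 1 of the SSZ1OEΔire1 arrays and Δire1 replicates 1 and 3 (2 or 3 higher at an unadjusted p under 0.05), and 9 rose without Δire1 replicate 2. General stress genes were mostly not called: of 30 Msn2/Msn4 genes 3 rose (NCE103, SOL4 and GRE3), 1 without SSZ1OEΔire1 replicate 1 and 0 without replicate 2 (4 higher at an unadjusted p under 0.05), and HSP12 (1.09, adjusted p = 0.47) and CTT1 (−0.01, adjusted p = 0.98) did not pass. Of 20 Yap1 genes 3 rose, GRE2, AHP1 and TSA2, with the AHP1 call lost in 10 and the TSA2 call in 12 of 19 alternatives and 1 rise left without SSZ1OEΔire1 replicate 1, as without replicate 2 or Δire1 replicate 3. The share of rises was 10% among the Msn2/Msn4 genes and 15% among the Yap1 genes, against 7.52% of all genes. The thioredoxin genes TRX2 (0.59, adjusted p = 0.12) and TRR1 (−0.16, adjusted p = 0.18) did not pass.

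Many ribosome assembly factors fell, by small amounts. Of 108 tested 43 fell and 0 rose, against 3.91% and 7.52% of all genes, with a median difference of −0.30, and 99 had a negative difference. The 43 falls ranged from −0.30 to −0.67, and 19 genes fell in the fit on only the 5 arrays of both strains. The list median relative to Δire1 was −0.248 and −0.313 on the SSZ1OEΔire1 arrays and between −0.012 and 0.023 on the Δire1 arrays. RPF2, a factor of the large subunit, had levels of 0.24 and 0.24 in SSZ1OEΔire1 and 0.84, 1.04 and 0.85 in Δire1 (difference −0.67, SE 0.08, adjusted p = 0.0053). DBP2, for an RNA helicase, fell by 0.66, RRP5, which serves both subunits, by 0.64, NOP7 by 0.61, UTP20 by 0.58 and NOP1, the methyltransferase of box C/D particles, by 0.49. The spike-in scale moved the median difference of all genes to 0.131, against 0.026 as scaled here. On that scale the list median was −0.19 and 0 of 108 were called by limma, with 3 lower at an unadjusted p under 0.05. Without SSZ1OEΔire1 replicate 2 also 0 were called, with 47 lower at an unadjusted p under 0.05. The falls numbered 15 without SSZ1OEΔire1 replicate 1, 19 without Δire1 replicate 1, 54 without Δire1 replicate 2, 14 without Δire1 replicate 3 and, with the length trend removed, 46.

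Of 32 genes of RNA polymerases I and III 6 fell and 1 rose, and 1 fell and 1 rose with only the 5 arrays of both strains. RPA190 and RPA135, for the largest subunits of RNA polymerase I, fell by 0.47 each and RPO31, for the largest subunit of RNA polymerase III, by 0.44, while RRN5, for a polymerase I initiation factor, rose by 0.49. Of 38 translation factor genes 4 fell (SUI3, NEW1, SUP45 and SUI2, by 0.43 to 0.32). Among the protein parts of the ribosome few genes were called: of 137 ribosomal protein genes 2 rose (RPS9A, 0.70, and RPL29, 0.61) and 0 fell, with a median difference of −0.026. Without Δire1 replicate 2, 9 of these rose and 1 fell, and 0 rose without any other 1 of the 5 arrays (5 to 8 higher at an unadjusted p under 0.05). Of 19 tRNA synthetase genes 0 changed by the limma test, with 4 lower at an unadjusted p under 0.05. Of 11 histone genes 3 fell, HTB1 and HHF2 by 0.48 each and HHF1 by 0.44, HHF1 and HHF2 encoding the same histone H4. With only the 5 arrays of both strains 0 histone genes fell by limma, with 8 lower at an unadjusted p under 0.05. Without SSZ1OEΔire1 replicate 2 limma called 0 falls among the polymerase, translation factor and histone genes (6, 4 and 5 lower at an unadjusted p under 0.05), and the spike-in scale gave 0 as well (0 lower in each list at an unadjusted p under 0.05). Among the polymerase genes 1 fell without SSZ1OEΔire1 replicate 1, as without Δire1 replicates 1 or 3, and 6 fell and 4 rose without Δire1 replicate 2. Among the translation factor genes 0 fell without SSZ1OEΔire1 replicate 1 and 0 without Δire1 replicate 3 (11 and 8 lower at an unadjusted p under 0.05), 2 fell without Δire1 replicate 1 and 11 without Δire1 replicate 2. Among the histone genes 1 fell without Δire1 replicate 1, 0 without Δire1 replicate 3 (7 lower at an unadjusted p under 0.05) and 6 without Δire1 replicate 2.

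**Figure D5:**
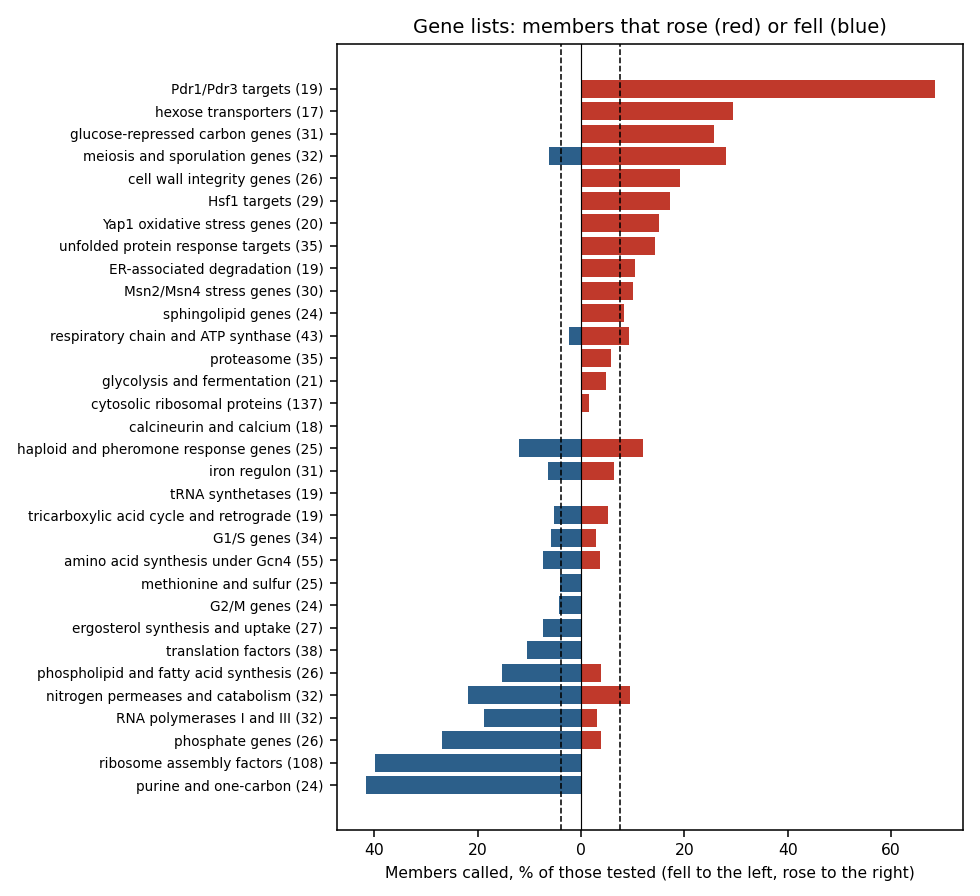
Share of the tested members of each gene list that rose (red, right) or fell (blue, left) in SSZ1OEΔire1 relative to Δire1, in percent of the members tested (number in brackets), for lists of at least 15 tested members, with dashed lines at the shares of all genes (7.52% rose and 3.91% fell). Pdr1/Pdr3 targets reach furthest to the right with 13 of 19, and purine and one-carbon genes (10 of 24) and ribosome assembly factors (43 of 108) furthest to the left.

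Lipid synthesis genes fell in part. ERG1, for squalene epoxidase, had levels of 0.97 and 0.88 in SSZ1OEΔire1 and 1.73, 1.58 and 1.79 in Δire1 (difference −0.77, SE 0.09, adjusted p = 0.0052), and ERG11, for the demethylase that azole drugs inhibit, fell by 0.76. They were the called genes among 27 of ergosterol synthesis and uptake, of which 15 fell without Δire1 replicate 2, 1 without SSZ1OEΔire1 replicate 1, as without Δire1 replicates 1 or 3, and by limma 0 without SSZ1OEΔire1 replicate 2 and 0 with the spike-in scale (4 and 2 lower at an unadjusted p under 0.05). Of 26 phospholipid and fatty acid genes 4 fell, CHO1, for phosphatidylserine synthase, by 0.62, PSD1, for phosphatidylserine decarboxylase, by 0.66, CKI1, for choline kinase, by 0.47, and EKI1, for ethanolamine kinase, by 0.44, and the acyl-CoA synthetase gene FAA1 rose by 0.67. Of these 26 genes 6 fell without Δire1 replicate 2, 1 without SSZ1OEΔire1 replicate 1, as without Δire1 replicates 1 or 3, and by limma 0 without SSZ1OEΔire1 replicate 2 and 0 with the spike-in scale (7 and 2 lower at an unadjusted p under 0.05). INO1, for inositol phosphate synthase, varied more within Δire1 than between the strains: its levels were −3.69 and −2.58 in SSZ1OEΔire1 and −0.29, −2.64 and −1.70 in Δire1 (difference −1.60, SE 0.66, adjusted p = 0.16).

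Metal genes moved singly. FIT2, for an iron-binding wall protein, rose by 1.06 (SE 0.13, adjusted p = 0.0053) and ISU1, the scaffold for iron-sulfur clusters, by 0.94 (SE 0.14, adjusted p = 0.0088). ZRT1, for the high-affinity zinc transporter, fell by 1.11 and FET4, for a low-affinity iron transporter, by 0.61. FET3, for the oxidase of high-affinity iron uptake, had a difference of −1.15 that did not pass (adjusted p = 0.14). Of 31 iron list genes 2 rose and 2 fell, near the shares of all genes, and 0 changed without SSZ1OEΔire1 replicate 2 (3 higher and 4 lower at an unadjusted p under 0.05). Of 25 sulfur genes 1 changed by the limma test, MET3, for ATP sulfurylase, which fell by 0.69, a call lost in 3 of 19 alternatives. At an unadjusted p under 0.05, 7 of the 25 were lower and 3 higher, and the list had a median difference of −0.24.

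Some genes normally used in mating or sporulation rose from low signal, and others fell. STE3, for the a-factor receptor of alpha cells, had levels of −4.34 and −3.79 in SSZ1OEΔire1, against −6.24, −5.97 and −6.33 in Δire1 (difference 2.12, SE 0.18, adjusted p = 0.0021), under every setting. YKL177W, the name next to STE3, was at least 2.15-fold higher, where "at least" means a bound: the mean of the brighter strain over the lowest clearly detectable signal on the arrays of the dimmer one. Names given with a bound were well above background on 2 of 2 SSZ1OEΔire1 arrays and 0 of 3 Δire1 arrays. They passed the filter without Δire1, so no p-value is given for them. The other alpha-cell genes MF(ALPHA)1 (0.43, adjusted p = 0.53) and SAG1 (−0.14, adjusted p = 0.54) did not pass, and of 9 a-cell genes, among them MFA1, MFA2 and STE2, 0 changed by the limma test, with 2 lower at an unadjusted p under 0.05. Among 25 haploid and pheromone genes FUS1 (0.66), FUS2 (0.40) and TEC1 (0.79) rose, and AGA1 (−1.01), PRM4 (−1.02) and HO (−0.96) fell. The TEC1 call was lost in 11, the FUS2 call in 9 and the FUS1 call in 7 of 19 alternatives. By limma 0 of the 25 rose without any 1 of the SSZ1OEΔire1 arrays and Δire1 replicates 1 and 3 (4 or 5 higher at an unadjusted p under 0.05), and 7 rose without Δire1 replicate 2. The falls numbered 0 without SSZ1OEΔire1 replicate 2 (3 lower at an unadjusted p under 0.05) and 1 without SSZ1OEΔire1 replicate 1, as without Δire1 replicate 3.

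Of 32 meiosis and sporulation genes 9 rose and 2 fell (median difference 0.32), and 7 rose and 3 fell after quantile normalization (median difference 0.035). Only 26 were well above background on every array of both strains, and of these 6 rose and 2 fell (median difference 0.21). SPR28, for a sporulation septin, had levels of −3.73 and −2.87 in SSZ1OEΔire1 and −5.88, −4.56 and −5.87 in Δire1 (difference 2.14, SE 0.42, adjusted p = 0.022). Here Δire1 replicate 2 lay between the other Δire1 arrays and the SSZ1OEΔire1 arrays. SPO74, for a spindle pole component of meiosis, was at least 2.37-fold higher. DIT1, for a spore wall enzyme, rose by 1.51, SSP1 by 1.43 and SPR3, for another sporulation septin, by 1.39. The chitin deacetylase gene CDA1 and the spore wall gene SPS22, which are not on the list, rose by 2.66 and 2.24, and RIM4, for an RNA-binding protein of meiosis, by 2.07. The regulators IME1 (0.87, adjusted p = 0.13), IME2 (0.36, adjusted p = 0.41) and NDT80 (−0.17, adjusted p = 0.64) did not pass, and SPS4 fell by 1.24 and CLB1 by 0.41. Of the 32, 1 rose without SSZ1OEΔire1 replicate 2, 5 without SSZ1OEΔire1 replicate 1, as without Δire1 replicate 1, and 4 without Δire1 replicate 3. In these 4 settings 0 fell by limma (2 or 3 lower at an unadjusted p under 0.05). PES4, a name outside the lists, rose by 2.15 (SE 0.26, adjusted p = 0.0052).

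Called genes that differed by at least 2-fold, of which 182 rose and 23 fell, included 21 pairs of neighbours in the systematic order. Both members rose in 18 pairs, both fell in 1 and the members moved oppositely in 2, and most genes with differences of this size were rises. The pairs that rose include YKL177W with STE3 and YBR300C with MAL32. YKL177W and YBR300C were not well above background on any Δire1 array and so passed the filter without Δire1. PDR5 rose with ATG40 beside it, and GRE2 with YOL150C. The pair that fell was AQY2 and YLL053C, which together correspond to an aquaporin gene: AQY2 had levels of −3.74 and −3.75 in SSZ1OEΔire1 and −2.21, −1.62 and −1.99 in Δire1 (difference −1.80, SE 0.19, adjusted p = 0.0037), and YLL053C fell by 1.99. The opposite pairs were MEP2, which fell, with YNL143C, which rose by 1.53, and ARO10, which fell, with SDH6, which rose by 1.85 (adjusted p = 0.0090). Outside the lists and pairs, YIL014C-A rose by 1.98 (adjusted p = 0.0072). HMS1, for a transcription factor linked to filamentous growth, fell by 2.05 (adjusted p = 0.033). Its levels were −6.74 and −7.77 in SSZ1OEΔire1 and −5.38, −4.88 and −5.36 in Δire1. The HMS1 call was lost in 7 of 19 alternatives, among them those without any 1 array of the strains compared. YFR054C was at least 1.70-fold higher and YMR206W at least 1.64-fold higher in SSZ1OEΔire1, both not well above background on any Δire1 array.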

How the data were processed

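Of the 62976 spots on an array, 61657 were not controls, and they belonged to 6616 probes. The authors read spot intensity with Agilent Feature Extraction (version 10.7.1.1 in the submitters' processing notes), whose processed intensity is background-subtracted per the file headers. A deposited log2 value table, made by the authors from the same arrays, served as an alternative: it followed the log2 processed signal after scaling to the 75th percentile and centring on each probe's median. That scale and centring were found from the values and are not given in the sources used here.

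Log2 processed signals were averaged over a probe's non-outlier spots and scaled to the 75th percentile of the non-control probes of that array. A probe was taken as well above background on an array if over 0.5 of its spots carried the scanner's mark for this, and a gene was tested where 1 or more of the 3 strains of the study reached this on all of its arrays. The brightest probe stood for each of 6576 names, 5903 of which matched a RefSeq gene list of assembly R64. That list also gave gene lengths, 97.0% of them multiples of 3 and so mostly coding lengths. The array design names another build, so no positions are given, and probe sequences were not used here.

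Differences were tested two-sided with limma 3.58.1 (R 4.3.3, with the package data.table at version 1.17.8), with a mean for each of the 3 strains fitted to all 8 arrays, then eBayes, and adjusted by Benjamini-Hochberg over 6240 genes at 0.05. The median SD of a gene was 0.068 in SSZ1OEΔire1 and 0.135 in Δire1, and differences had a median SE of 0.116. On simulated data of 6240 genes for this comparison, 70% of 1.5-fold, 90% of 2-fold and 96% of 4-fold changes were called (50 genes each), with 13 calls among 6040 unchanged genes. The simulated noise was independent between genes and held no shift of a whole array, unlike the arrays here.

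The comparison, the gene lists and the genes named were chosen with earlier results of these data known. Named were SSZ1, IRE1, SCJ1 and HAC1, the 15 largest rises and 15 largest falls past the threshold with non-overlapping arrays, up to 8 called genes per list with its key genes, neighbours and copies of these, and up to 6 genes at a bound. Most of them are described above. Alternatives were quantile, median and spike-in scaling, normexp background correction with an offset of 50 (on the median spot signal, with the local background intensity, both deposited by the authors per the file headers, since no mean signal was at hand), other probe filters, the fit on 5 arrays, blocks for slide row and replicate number, array weights, leaving out each array, and removal of each array's trend with gene length (span 0.3), the last chosen after seeing the data.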

Additional observations from a re-analysis of the deposited data

How the results depend on the processing

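The rise of SSZ1 passed the threshold under all 19 alternatives. The count of changed genes, 713 as reported, was within 1.5 times of that with quantile normalization, median scaling, normexp correction, either other filter, the mean over probes, the deposited value table and removal of the length trend (652 to 851). It was 205 with spike-in scaling, 387 with only the 5 arrays of both strains, 252 with slide row as a block (the same fit of this contrast as leaving out Δire1 replicate 3), 289 with the replicate number as a block, 2468 with array weights, whose estimation stopped before converging, and 1430 without Δire1 replicate 2 and with the length trend removed. Leaving out 1 array at a time gave 60 to 1507 genes, the lowest without SSZ1OEΔire1 replicate 2 and the highest without Δire1 replicate 2. The cause of these shifts was not tested. The replicate numbers pair no samples by the labels, and with 2 same-numbered pairs (r of their deviations 0.152 and 0.114) the pairing could not be judged from the data. Of 162 named calls, 69 held with spike-in scaling, 86 with slide row as a block, 94 with the replicate block, 28 without SSZ1OEΔire1 replicate 2 and 81 without SSZ1OEΔire1 replicate 1, and no difference changed sign in any setting. With 2 and 3 arrays, the calls of small changes such as those of ribosome assembly factors depend on single arrays and on the scale. The median difference of that list stayed between −0.355 and −0.190 over the alternatives.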

Other observations

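Genes of the mitochondrial genome had higher levels in SSZ1OEΔire1 as a group. All 15 tested had a positive difference, with a median of 0.48, against medians between −0.001 and 0.105 for the nuclear chromosomes, and 3 rose: AI5_ALPHA by 1.14, AI1 by 0.87 and COX2 by 0.70. Relative to the Δire1 mean, their median level was 0.553 and 0.426 on the SSZ1OEΔire1 arrays and −0.072, 0.304 and −0.197 on Δire1 replicates 1, 2 and 3. Δire1 replicate 2 lay near the SSZ1OEΔire1 arrays here too. Labelling was primed with oligo-dT, and yeast mitochondrial transcripts carry no long poly(A) tails.

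LEU2, an auxotrophic marker gene of leucine synthesis, split the Δire1 arrays: it had levels of 2.43 and 2.42 in SSZ1OEΔire1 and 0.48, −0.02 and 2.73 in Δire1. Δire1 replicate 3 was thus at the level of the SSZ1OEΔire1 arrays and replicates 1 and 2 were below it. URA3 had levels of 2.95 and 2.18 in SSZ1OEΔire1 and 3.58, 3.21 and 3.47 in Δire1 (difference −0.85, adjusted p = 0.060). Of 8 marker genes 0 changed by the limma test, while 1 was higher and 2 were lower at an unadjusted p under 0.05.

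Among names that RefSeq lacks, 41 of 479 rose (8.56%, near the 7.52% of all genes) and 6 fell (1.25%, against 3.91%), and among RefSeq genes with a letter suffix in their systematic name, mostly small genes added to the annotation later, 53 of 254 rose (20.9%) and 6 fell. YHR145C, which RefSeq lacks, was at least 2.73-fold higher and YBR300C, beside MAL32, at least 1.87-fold higher in SSZ1OEΔire1.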
